A study of Mus musculus with 32 samples.

Results

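HNF4A binding sites were examined at 9 genes of citrulline and arginine metabolism, Nags, Cps1, Otc, Aldh18a1, Prodh, Oat, Ass1, Asl and Arg2, in jejunal intestinal epithelial cells (IECs) of mice. HNF4A, hepatocyte nuclear factor 4 alpha, is a nuclear receptor that drives the enterocyte program, and chromatin immunoprecipitation sequencing (ChIP-seq) maps where it sits on DNA. Overlapping peaks of 8 libraries (1 bp or more in common) were joined into merged sites, and a site belonged to a gene when it lay in the gene body or within 20 kb of it (mm9, GENCODE M1 genes). The rule gave 52 sites of 45552 in all. Each gene had between 2 and 10 sites, and no site belonged to more than 1 of the 9 genes.

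All mice were C57BL/6J males of 10 to 12 weeks that were reared germ-free, and all received an egg yolk high-fat meal 2 hours before collection. GF+HFM mice (4 libraries) stayed germ-free, and CV+HFM mice (4 libraries) had been colonized for 14 days with a conventional fecal microbiota. Each library came from 1 mouse. The IECs were not sorted, and beside villus epithelium the preparation holds some of the epithelial crypts and some villus mesenchymal cells. Fewer cells with HNF4A at a site and less HNF4A per cell therefore cannot be told apart.

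The small intestine makes citrulline from glutamine, glutamate and proline and releases it to the blood, and the kidney turns it into arginine. Aldh18a1 makes pyrroline-5-carboxylate from glutamate, Prodh makes it from proline, and Oat interconverts it with ornithine. Nags makes N-acetylglutamate, the activator of Cps1, Cps1 makes carbamoyl phosphate, and Otc joins it to ornithine to give citrulline. Ass1 and Asl carry citrulline on to arginine, and Arg2 is the mitochondrial arginase, which returns arginine to ornithine.

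Sites are numbered along each gene in the direction of transcription, so that Cps1-1 is the first site met on the way into Cps1. The following reference sequences lie in the bases that peaks of all calling libraries shared (NCBIM37, the assembly of mm9, plus strand). They come from sites at Cps1 and Otc, which form carbamoyl phosphate and citrulline, and at Nags, which makes the activator of Cps1. Capitals mark matches to CAAAGNNCA on either strand, in which N is any base, the letters shared by the HNF4 motif and by a direct repeat of nuclear receptor half-sites. Cps1-1 (chr1:67158283-67158482) lies upstream of the gene, Cps1-3 (chr1:67174915-67175041) in its intron 1, Otc-2 (chrX:9829344-9829430) directly before the annotated first base of Otc, and Nags-4 (chr11:102007561-102007679) in intron 1 of Nags.
Cps1-1: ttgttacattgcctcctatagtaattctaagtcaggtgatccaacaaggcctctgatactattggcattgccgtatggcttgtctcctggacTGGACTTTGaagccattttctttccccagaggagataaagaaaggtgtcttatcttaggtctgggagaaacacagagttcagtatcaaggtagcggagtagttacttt
Cps1-3: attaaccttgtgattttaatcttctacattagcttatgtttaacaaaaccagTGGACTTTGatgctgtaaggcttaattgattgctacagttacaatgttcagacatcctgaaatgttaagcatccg
Otc-2: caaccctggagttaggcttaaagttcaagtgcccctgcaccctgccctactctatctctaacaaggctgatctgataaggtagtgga
Nags-4: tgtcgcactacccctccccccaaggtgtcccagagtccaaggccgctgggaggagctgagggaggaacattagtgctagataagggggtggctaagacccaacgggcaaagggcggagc

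The next sequences come from sites at the enzymes that supply and consume ornithine. They are examples, and whether a match goes with the number of calls was not tested. They set sites with a match and a moderate number of calls, Oat-1 (chr7:139781356-139781555) and Oat-4 (chr7:139769979-139770178), beside sites with a peak in all 8 libraries and no match, Prodh-6 in intron 2 (chr16:18082614-18082704) and Arg2-7 in intron 3 (chr12:80250692-80250855).
Oat-1: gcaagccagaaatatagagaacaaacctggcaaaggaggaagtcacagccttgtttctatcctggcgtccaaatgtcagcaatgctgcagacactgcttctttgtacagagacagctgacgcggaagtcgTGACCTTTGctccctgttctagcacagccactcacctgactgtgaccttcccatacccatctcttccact
Oat-4: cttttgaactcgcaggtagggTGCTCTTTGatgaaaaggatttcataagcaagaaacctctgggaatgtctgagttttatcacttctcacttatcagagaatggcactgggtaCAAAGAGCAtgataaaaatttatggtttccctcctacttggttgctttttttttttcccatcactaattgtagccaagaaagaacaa
Prodh-6: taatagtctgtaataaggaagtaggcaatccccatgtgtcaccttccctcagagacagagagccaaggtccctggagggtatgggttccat
Arg2-7: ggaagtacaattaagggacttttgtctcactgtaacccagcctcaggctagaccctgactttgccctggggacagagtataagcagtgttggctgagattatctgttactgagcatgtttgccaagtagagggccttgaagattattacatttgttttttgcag

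Cps1-1 and Cps1-3 hold the same 9 bases, CAAAGTCCA, both on the minus strand. A match on the minus strand reads as TGGACTTTG in the plus strand printed above. The same 9 bases stood in 2 other sites, Asl-1 and Oat-2, in Oat-2 outside the bases that all of its libraries shared. Oat-1 held CAAAGGTCA on the minus strand, and Oat-4 held CAAAGAGCA once on each strand.

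The lists hold positions only, with no read counts, enrichment or p-value of a peak, so depth is unknown. The number of peaks ranged from 31061 to 36846 in GF+HFM libraries and was 29345, 9206, 21033 and 4533 in CV+HFM replicates 1 to 4. Width in bp was used as the size of a peak, given as its percentile within its own list, because the narrowest peak differed from 52 to 223 bp between lists. Where a library had several peaks in a site, the widest was taken. The lists differ in length, so the same percentile in different lists need not mean the same standing among shared sites. Names in the lists ended in the letter A for GF+HFM replicates 1 and 2 and CV+HFM replicates 1, 2 and 3 and not for the other libraries, and what the letter stands for was not stated. Enterocyte marker genes (Vil1, Fabp2, Alpi, Lct, Cdx2 and Apoa4) all had sites, 67 in total. Of 5 mesenchymal markers, 3 had sites, 6 in total, and Cd3e and Cd79a had sites among 3 leukocyte markers, 5 in total. Of 4 hepatocyte markers, Alb, Fgb and Serpina1a had no site and Cyp2e1 had 2. These are sites on DNA and do not measure expression.

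The number of HNF4A sites differed between the 9 genes. Prodh had 10 sites, Arg2 had 9, Oat had 8, Nags and Aldh18a1 had 7 each, Cps1 had 4, Otc had 3, and Ass1 and Asl had 2 each. Over 22367 protein-coding genes in the same window, 65.5% had at least 1 site, the median was 2 and the 90th percentile was 7. Windows differ in length, and per 100 kb of window Nags came first with 15.9 sites, followed by Prodh with 14.3, Arg2 with 13.7, Oat with 13.6 and Aldh18a1 with 8.95. Asl had 3.71, Otc 2.76, Cps1 2.70 and Ass1 2.21 per 100 kb, against a median of 2.2 over all genes. Cps1 and Otc are the longest of the 9 genes, and 2 of the 4 Cps1 sites and 2 of the 3 Otc sites lay at or before the gene start.

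**Figure D1:**
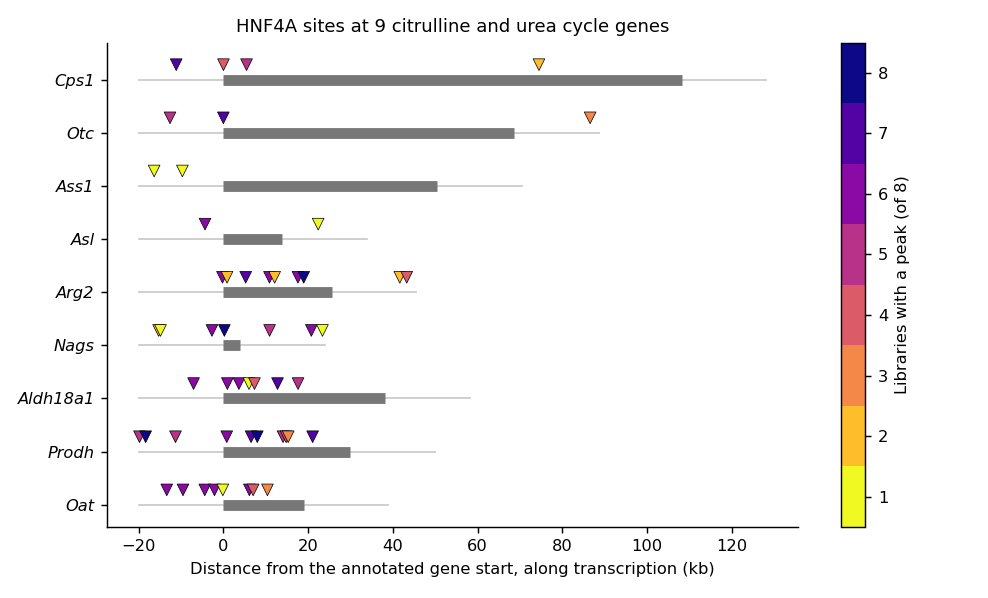
Distance of each HNF4A site from the annotated gene start along transcription in kb (x axis) for the 9 genes (y axis). Thick grey bars are gene bodies, thin lines the 20 kb on either side, and triangles the midpoints of the 52 sites coloured by the number of libraries with a peak. The 4 sites called in all 8 libraries lie at Arg2, Nags and Prodh, and both sites of Ass1 were called in 1 library.

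A site over an annotated transcript start was found at 6 of the 9 genes, Cps1, Otc, Nags, Prodh, Oat and Arg2, against 18.1% of protein-coding genes. There was none at Aldh18a1, Ass1 and Asl. These are merged sites, and not every library's peak in them reached the start. By position, 22 sites lay inside a gene, 16 upstream, 8 downstream and 6 over a transcript start. Another protein-coding gene was overlapped at 17 of the 52 sites, and at 15 another gene was nearer than the member.

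GF+HFM libraries called more of these sites than CV+HFM libraries on average, and the groups overlapped. GF+HFM replicates 1 to 4 called 41, 34, 45 and 41 of the 52 sites, and CV+HFM replicates 1 to 4 called 41, 12, 27 and 4. The means were 40.2 ± 4.57 (SD, n = 4) and 21 ± 16.4 (SD, n = 4). CV+HFM replicate 1 called as many as GF+HFM replicates 1 and 4, and CV+HFM replicates 2 and 4 were far lower. Over all 45552 sites the GF+HFM libraries also called more on average, 71.6% ± 5.38 against 33.1% ± 23.4 in CV+HFM (SD, n = 4 each). There the groups did not overlap, since CV+HFM replicate 1 called 60.8% and the GF+HFM libraries 64% to 76.4%. At the 9 genes the mean shares were 77.4% ± 8.77 and 40.4% ± 31.5. Without CV+HFM replicates 2 and 4, the libraries with the shortest lists, the difference between the means was 6.25 sites in place of 19.2. When each list was cut to its 4533 widest peaks, the number in the shortest list, GF+HFM libraries called 4 and CV+HFM libraries 4.75 of these sites on average. This cut gives all lists the same number of peaks, so that similar means are largely set by the cut itself. What the length of the lists contributes to the difference was not tested.

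**Figure D2:**
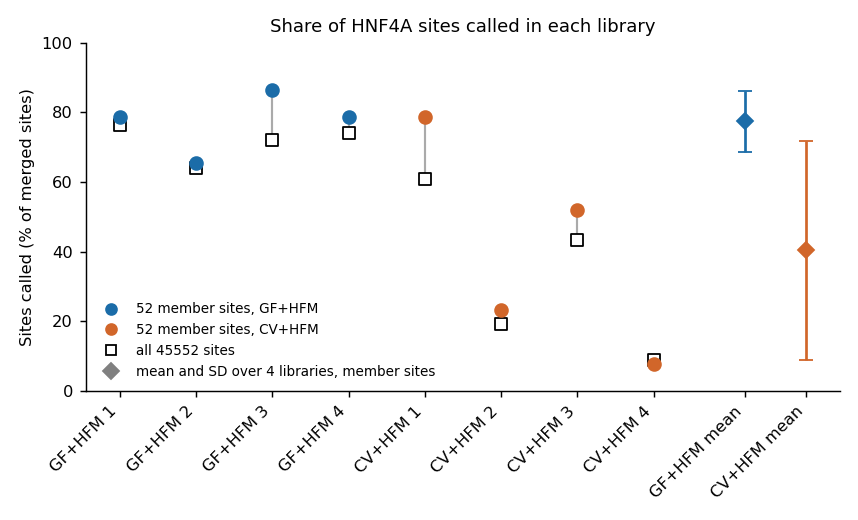
Percentage of merged HNF4A sites called in each of the 8 libraries (x axis), for the 52 sites at the 9 genes (circles) and for all 45552 sites (squares), with the mean and SD over 4 libraries of each condition at the right (diamonds). CV+HFM replicate 1 reaches 78.8% of the sites at the 9 genes, within the GF+HFM range of 65.4% to 86.5%, and CV+HFM replicate 4 reaches 7.69%.

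No site at these genes was called in all 4 GF+HFM and no CV+HFM libraries, against 2.79% (1269) of all sites. The count rests on CV+HFM replicate 1, without which 6 of these sites were so called, against 10.9% of all sites. Calls in 4 against 0 libraries give the smallest p that 4 against 4 libraries allow (Fisher's exact test, two-sided, p = 0.0286). After Benjamini-Hochberg adjustment over all 45552 sites, 0 sites passed 0.05 in Fisher's exact test, with 1269 at an unadjusted p below 0.05. With this smallest p, no site can pass the adjustment unless most sites reach it, so the 0 does not show that sites were alike. Calls in 4 against 1 libraries already give p = 0.143 (Fisher's exact test). A p above 0.05 at a single site is therefore no evidence of equal binding. No site, at these genes or elsewhere, had peaks in all 4 CV+HFM mice and in none of the GF+HFM mice. More GF+HFM than CV+HFM libraries called 44 of the 52 sites (84.6%), against 86.5% of all sites, so the direction at these genes was near the background. All 4 GF+HFM libraries had a peak at 30 of 52 sites (57.7%), against 50.6% of all sites. Sites called in GF+HFM libraries only were 10 of 52 (19.2%), against 35.6% of all sites, and 27 of 52 (51.9%) were called in at least 2 CV+HFM libraries, against 40.8%. Aldh18a1-4 in intron 3 was the only site with a peak in CV+HFM mice alone (1.92% of 52, against 2.67% of all sites), in replicate 1 at the 5.76th width percentile, and so also the only site with more CV+HFM than GF+HFM calls, against 2.86% of all sites. At least 7 libraries called 10 of the 52 sites (19.2%) and at least 6 called 25 (48.1%), against 19.3% and 38.6% of all sites, and a single library called 7 (13.5%), against 21.6%.

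Nags, whose product switches on carbamoyl phosphate synthesis, had the broadest site of the 9 genes. The merged site Nags-4 (chr11:102006047-102008031, 1985 bp) covers the gene start. It had a peak in all 8 libraries, as did 7.56% of all sites, but not over the start in each of them. Its widest peak measured 1660, 752, 1692 and 1985 bp in GF+HFM replicates 1 to 4 and 566, 309, 681 and 297 bp in CV+HFM replicates 1 to 4. These widths stood at percentiles of 99.9, 97.1, 99.7 and 99.7 in the GF+HFM lists and of 88.7, 90.1, 97.6 and 91.6 in the CV+HFM lists, so that the groups overlapped at 97.1 and 97.6. In GF+HFM replicates 1, 3 and 4 a single peak ran from upstream of the start into the gene. In CV+HFM replicates 1 and 3 it was split into a peak over the start and another in the gene. In CV+HFM replicate 2 it was split into a peak at -430 to -122 bp from the start and another in the gene. GF+HFM replicate 2 had 3 peaks, none of them over the start. In CV+HFM replicate 4 only the inner peak was called, from 689 to 985 bp after the start. An antisense gene, Gm11586, also overlaps this start.

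The other Nags sites were called less often. Nags-3, 2720 bp upstream, had peaks in all GF+HFM mice and in 2 CV+HFM mice at percentiles between 10.3 and 66.9. Nags-1 and Nags-2, 15316 and 14874 bp upstream, had peaks in 2 GF+HFM mice and in 1. Downstream, Nags-5, centred 2 bp from a transcript start of Tmem101, was called in all GF+HFM mice and in 1 CV+HFM mouse. Nags-6 in Lsm12 was called in 4 and 2, and Nags-7 in Lsm12 in GF+HFM replicate 1 alone. These downstream sites lie inside other genes, and which gene they act on is not measured by ChIP-seq.

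At Cps1, the enzyme that commits ammonia to carbamoyl phosphate, the most often called site was upstream of the gene and not over its start. Cps1-1 (chr1:67158145-67158748), 11154 bp before the start, stood at percentiles of 65.0, 68.3, 69.0 and 58.7 in GF+HFM replicates 1 to 4. CV+HFM replicates 1, 2 and 3 called it at 62.8, 72.3 and 54.0. The percentiles of the conditions overlapped, and calls in 4 and 3 libraries gave p = 1 (Fisher's exact test, two-sided). Cps1-2 (chr1:67169396-67169811), over the start, was called in GF+HFM replicates 1, 3 and 4 at 24.5, 28.3 and 35.8 and in CV+HFM replicate 1 at 10.4 (p = 0.486, Fisher's exact test). Cps1-3 in intron 1, with the same 9 matching bases as Cps1-1, stood at 15.1 to 46.7 in the 4 GF+HFM libraries and, in CV+HFM replicate 1, at 1.53, among the narrowest peaks of that list. Cps1-4, in intron 24, had peaks in GF+HFM replicates 3 and 4 only.

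Otc, which forms citrulline, had its most often called site over the start. Otc-2 (chrX:9829139-9829680) stood in GF+HFM replicates 1 to 4 at percentiles of 77.8, 64.3, 54.4 and 51.8. In CV+HFM replicates 1, 2 and 3 it stood at 68.6, 3.04 and 62.9, and replicate 4 had no peak. Replicates 1 and 3 lay within the GF+HFM range and replicate 2 far below it, with a peak of 113 bp, the narrowest width in its list. Otc-1, 12625 bp upstream, was called in every GF+HFM mouse and in CV+HFM replicate 1 (p = 0.143, Fisher's exact test), and Otc-3, downstream of the gene, in 2 GF+HFM mice and CV+HFM replicate 1.

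**Figure D3:**
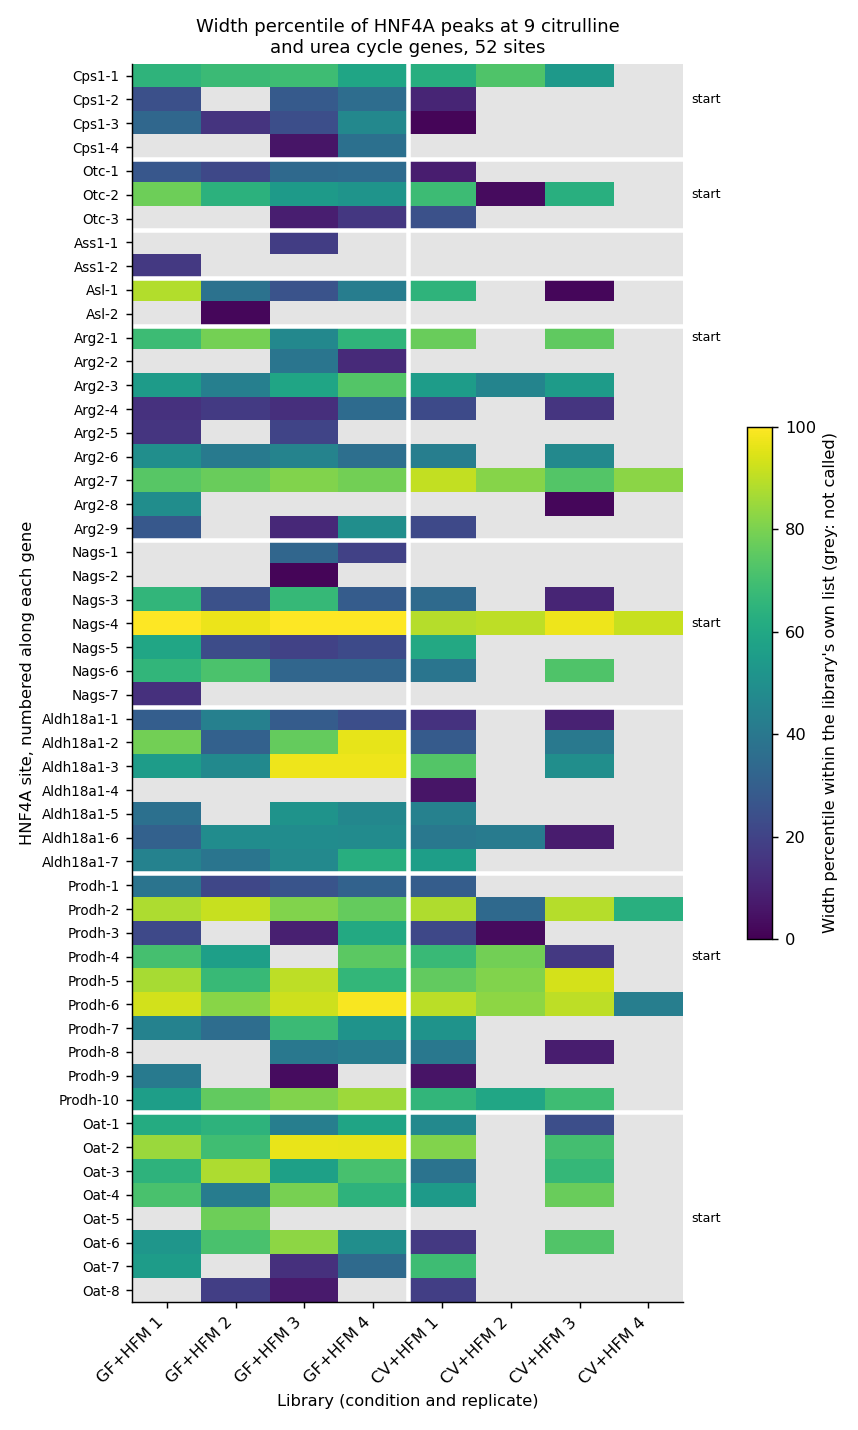
Width percentile of the widest peak at each of the 52 sites (rows, grouped by gene, "start" marking sites over a transcript start) in each of the 8 libraries (columns), from 0 to 100 within the library's own list, with grey where no peak was called. Calls thin out from CV+HFM replicate 1 to 3, 2 and 4, and the rows filled in all libraries are Arg2-7, Nags-4, Prodh-2 and Prodh-6.

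Aldh18a1, which feeds glutamate into the pathway, had no site over its start and 6 of its 7 sites in introns. Aldh18a1-6 in intron 6 (chr19:40649938-40650429) was called most often, in GF+HFM libraries at percentiles of 31.2, 48.6, 48.5 and 48.2 and in CV+HFM replicates 1, 2 and 3 at 39.9, 41.5 and 7.46. Aldh18a1-2 and Aldh18a1-3, 920 and 3650 bp after the start, were wider. In GF+HFM replicate 4 each was a single peak of 1180 and 1301 bp, and in GF+HFM replicates 1 and 2 and CV+HFM replicates 1 and 3 each was a pair of separate peaks. Both were called in every GF+HFM mouse and in CV+HFM replicates 1 and 3 (p = 0.429, Fisher's exact test). Aldh18a1-5 was called in 3 GF+HFM mice and 1 CV+HFM mouse and Aldh18a1-7 in 4 and 1. Aldh18a1-1, 7055 bp upstream and nearest to Tctn3, was called in 4 and 2.

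Prodh, the first enzyme of proline breakdown, had the most calls in the short CV+HFM lists. CV+HFM replicate 2 called 6 of the 10 Prodh sites and 6 of the 42 sites at the other 8 genes, and CV+HFM replicate 4 called 2 at Prodh and 2 at the others. Over all 45552 sites these libraries called 19.2% and 8.97%. Prodh-6 in intron 2 (chr16:18081502-18083105) was called in all 8 libraries, with percentiles of 93.1, 82.3, 92.4 and 99.1 in GF+HFM and of 89.6, 83.0, 89.9 and 42.9 in CV+HFM replicates 1 to 4. Its peaks in CV+HFM replicates 2 and 4, 271 and 91 bp wide, covered only the part of the site nearer to the Prodh start. Prodh-2 (chr16:18108306-18109034), 18374 bp upstream, was also called in all 8 libraries, at 87.5, 91.6, 81.2 and 76.5 in GF+HFM and at 87.9, 34.3, 89.0 and 63.0 in CV+HFM. CV+HFM replicates 1 and 3 lay among the GF+HFM values at both sites, and the lowest values came from CV+HFM replicate 4 at Prodh-6 and replicate 2 at Prodh-2. Ranked only among the sites called in all 8 libraries, Prodh-2 in CV+HFM replicate 4 stood at 53.4, within the GF+HFM range of 25.2 to 63.4. Replicate 2 stayed below that range, at 13.

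**Figure D4:**
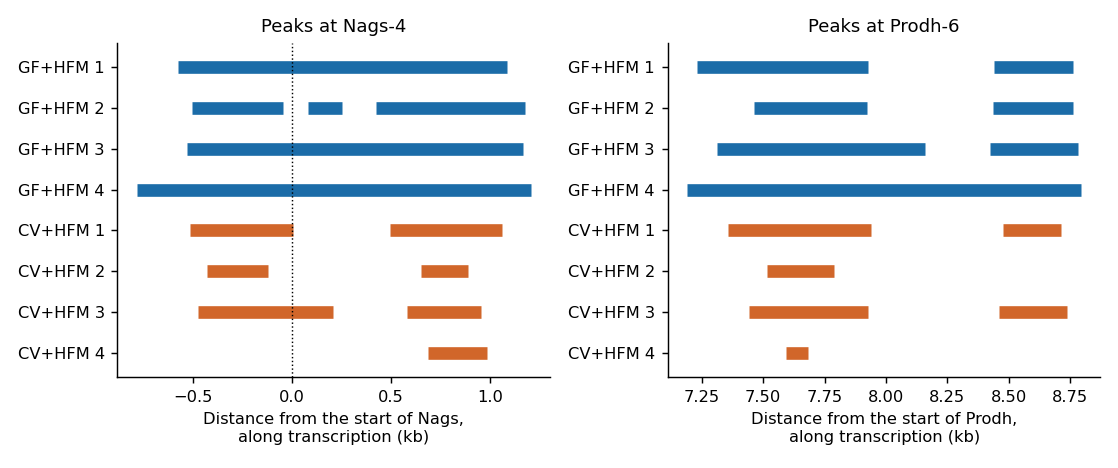
Extent of every peak of each library (y axis) at Nags-4 and Prodh-6, as distance from the annotated gene start along transcription in kb (x axis), with GF+HFM in blue, CV+HFM in orange and the Nags start as a dotted line. At Nags-4 a single peak spans the site in GF+HFM replicates 1, 3 and 4 only, and at Prodh-6 in GF+HFM replicate 4 only, while CV+HFM replicates 2 and 4 show peaks only in the part of Prodh-6 nearer to the start.

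Prodh-4 lies in intron 1 of the Prodh transcript with the most exons and over the start of another annotated Prodh transcript. It was called in 3 GF+HFM libraries at percentiles of 70.4, 56.5 and 74.7 and in 3 CV+HFM libraries at 67.8, 78.7 and 16.5. Prodh-5 was called in 4 GF+HFM and in 3 CV+HFM mice, all at or above the 66.1th percentile. Prodh-10 overlaps the neighbouring gene Dgcr6, which a short annotated Prodh transcript also reaches, and was called in the same number, with 3 matches to the motif letters, the most of any site here. The remaining sites were Prodh-1 and Prodh-7 (4 GF+HFM mice and 1 CV+HFM mouse each), Prodh-3 (3 and 2), Prodh-8 (2 and 2) and Prodh-9 (2 and 1).

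Oat, which links pyrroline-5-carboxylate and ornithine, had 8 sites, of which CV+HFM replicates 2 and 4 called 0, beside 19.2% and 8.97% of all sites, so that so few calls at 8 sites are near the background. CV+HFM replicates 1 and 3 called 7 and 5 of them, and GF+HFM libraries called 6, 7, 7 and 6. Whether Oat and Prodh differ in this respect was not tested, since sites of a gene share their libraries. Oat-5, over the start (chr7:139768018-139768443), was called in GF+HFM replicate 2 alone, at the 78.0th percentile. The sites around it were called in 6 libraries each, Oat-4 at 2122 bp, Oat-3 at 4416 bp, Oat-2 at 9559 bp and Oat-1 at 13391 bp upstream, and Oat-6 in intron 1. Oat-2 (chr7:139777056-139778225) was the widest of them, at percentiles of 85.0, 69.5, 96.6 and 96.1 in GF+HFM. CV+HFM replicates 1 and 3 called it at 81.2 and 70.3. Oat-7 was called in 3 GF+HFM mice and 1 CV+HFM mouse and Oat-8 in 2 and 1. In GENCODE M1 the gene Fgfr2 spans the whole of Oat, so that each Oat site also lies in Fgfr2.

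Of the genes that turn citrulline into arginine, Ass1 had no site called in more than 1 library in the window, and Asl had Asl-1, called in 6 libraries. Ass1-1 and Ass1-2 were called in GF+HFM replicates 3 and 1, at percentiles of 18.2 and 16.6, and both lie in Hmcn2. A site 20793 bp beyond the Ass1 gene body (chr2:31396985-31397692), just outside the 20 kb limit and with Ass1 as its nearest protein-coding gene, was called in every GF+HFM mouse and in 3 CV+HFM mice. Asl-1 (chr5:130504973-130505736), 4352 bp upstream, stood at 88.5, 37.6, 25.6 and 42.3 in GF+HFM and, in CV+HFM replicates 1 and 3, at 65.2 and 1.72. The peak in CV+HFM replicate 3 was 156 bp, the narrowest width in its list. Asl-1 overlaps Crcp, whose transcript start is nearest. Asl-2, in Gusb and centred 102 bp from a transcript start of Gusb, was called in GF+HFM replicate 2 alone at the 1.79th percentile. Its 165 bp were the narrowest width in that list.

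Arg2, the mitochondrial arginase, carried 7 of its 9 sites from its start to its intron 3. Arg2-7 in intron 3 (chr12:80250363-80251069) was called in all 8 libraries, at percentiles of 73.9, 77.2, 81.0 and 78.9 in GF+HFM and of 91.0, 81.9, 73.4 and 82.7 in CV+HFM. In these percentiles CV+HFM replicates 1, 2 and 4 were above every GF+HFM library and replicate 3 was below them. Ranked only among the sites called in all 8 libraries, replicate 3 stood at 29.7, within the GF+HFM range of 18.1 to 34.3. CV+HFM replicates 1, 2 and 4 stood above that range, at 62.5, 63.8 and 77.6. Arg2-1, over the start (chr12:80231226-80231845), stood at 68.7, 79.0, 46.5 and 65.5 in GF+HFM and, in CV+HFM replicates 1 and 3, at 77.0 and 75.4, within the GF+HFM range (p = 0.429, Fisher's exact test). Arg2-3 was called in 4 GF+HFM mice and in 3 CV+HFM mice, Arg2-4 and Arg2-6 in 4 and 2, and Arg2-2 and Arg2-5 in 2 GF+HFM mice each. Downstream, Arg2-8 in Vti1b, centred 96 bp from a transcript start of Vti1b, was called in 1 library of each condition. Arg2-9, nearest to Rdh11, was called in 3 and 1.

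Sites called in all 8 libraries were 4 of 52 (7.69%), against 7.56% of all sites, and they lay at 3 of the 9 genes, against 16.8% of protein-coding genes with such a site. For these 4, the width rank was compared between conditions with limma, over all 3445 sites called in all 8 libraries, after each library's widths were turned into normal scores. Nags-4 scored 1.90 ± 0.628 (SD, n = 4) in germ-free and 0.856 ± 0.534 (SD, n = 4) in colonized mice, a difference of -1.05 (SE 0.416, limma, unadjusted p = 0.0219, adjusted p = 0.358). Arg2-7 went the other way, from -0.615 ± 0.214 to 0.224 ± 0.543 (difference 0.839, SE 0.379, limma, adjusted p = 0.414). Prodh-6 differed by -0.384 (SE 0.426) and Prodh-2 by 0.047 (SE 0.409), with adjusted p = 0.737 and 0.974 in limma. The Prodh-6 difference moved to -0.0296 and -0.661 when GF+HFM replicate 4 or 2 was left out and to -0.103 when CV+HFM replicate 4 was, and that at Prodh-2 changed sign with the library left out. None of the 4 passed an adjusted p of 0.05, and over the 3445 sites 0.116% were called lower in CV+HFM and 0 higher.

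Width in the germ-free libraries went together with the number of CV+HFM libraries that called a site. Of the 30 sites with peaks in every GF+HFM mouse, 6 were called in 1 CV+HFM library, 14 in 2, 6 in 3 and 4 in all 4. Their median GF+HFM width percentiles were 30.5, 60.5, 63.7 and 87.9, beside 40.7, 58.2, 73.9 and 86.7 over all sites of the same kind. At all 30 sites the CV+HFM calls were nested. Replicate 1 called every one, replicate 3 some of these, replicate 2 some of those of replicate 3, and replicate 4 some of those of replicate 2. Calls were nested in the same order at 94.4% of the 23049 sites called in all 4 GF+HFM libraries, a share that includes sites with no CV+HFM call. This is the order of the lengths of the CV+HFM lists. CV+HFM replicate 1 called 100% of the 30, replicate 3 80%, replicate 2 33.3% and replicate 4 13.3%, against 91.6%, 78%, 37.1% and 17.0% over all such sites.

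**Figure D5:**
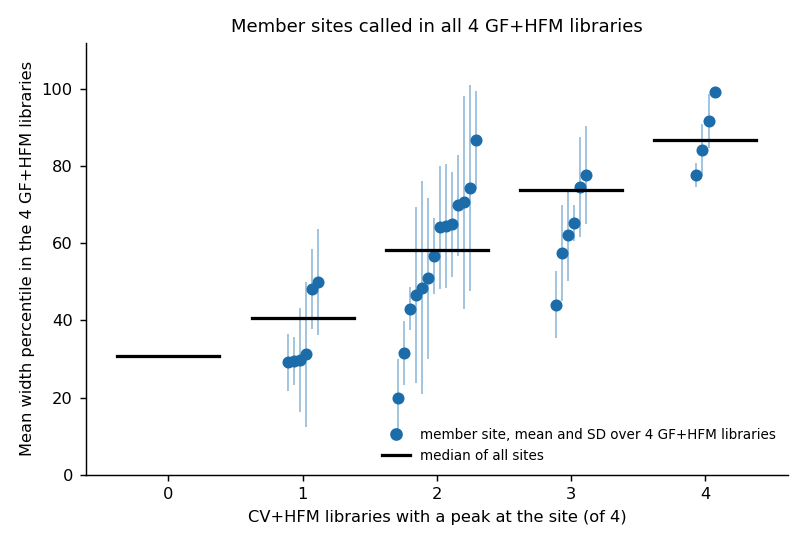
Mean width percentile in the 4 GF+HFM libraries (y axis, bars are SD over the 4) of the 30 sites at the 9 genes called in all of them, by the number of CV+HFM libraries with a peak (x axis), with the median of all sites of each kind as a black line. The 4 sites called in every CV+HFM library lie between 77.7 and 99.1, the 6 called in 1 between 29.2 and 50.0, and no site falls at 0.

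Matches to CAAAGNNCA were not more frequent at these sites than elsewhere. A 200 bp window at the midpoint held a match at 9 of 52 sites (17.3%, Wilson 95% interval 9.38 to 29.7, which covers the counting of sites only), beside 22.9% of all sites. In the whole site, 15 of 52 held a match (28.8%), beside 33.8% of all sites. The 20 matches fell at 8 of the 9 genes, with none at Ass1, and 14 of them lay in bases covered by all the calling libraries. Of the 4 sites called in all 8 libraries, none held a match anywhere in the site. With a match in 33.8% of all sites, 4 sites are too few to tell this from the background. The share among all sites called in all 8 libraries was not counted. Among sites called in 7 libraries, Cps1-1, Aldh18a1-6 and Prodh-10 held a match, and Otc-2, Arg2-3 and Prodh-5 held none. A match is a run of letters, and its absence says nothing about whether HNF4A was bound.

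Other genes of the same metabolism, from a list of 29 of which 28 were in the annotation, also carried sites. At least 1 site was found at 24 of the 28, beside 65.5% of protein-coding genes, with a median of 3 sites beside 2. A site over a transcript start was found at 9 of the 28, beside 18.1% of protein-coding genes. A site called in all 8 libraries was found at 13 of the 28, beside 16.8% of protein-coding genes. A site called in all 4 GF+HFM and no CV+HFM libraries was found at 1, Pycr1, which makes proline from pyrroline-5-carboxylate, beside 6.88% of protein-coding genes. Of 5 mitochondrial carriers, 4 had sites, among them Slc25a15, the ornithine and citrulline exchanger, with 8 sites and 2 of them called in all 8 libraries. Slc25a22, a glutamate carrier, and Slc25a13, the aspartate and glutamate carrier, had 9 sites each. All 8 genes of glutamine and glutamate supply had sites, though the 2 at Gls2 were called in 1 library each. Among 10 genes of arginine use, 8 had sites, and Arg1, the cytosolic arginase, had 1, over its start and called in all 8 libraries.

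Sites lay close to the 20 kb limit on both sides. The nearest sites inside were Prodh-1, at 19636 bp from the gene body, and Nags-7, at 19320 bp, called in 5 libraries and in 1. The nearest outside were the Ass1 site at 20793 bp, a site at 20911 bp from Aldh18a1 called in 1 library, and a site at 20942 bp from Prodh called in 3 GF+HFM mice and 1 CV+HFM mouse. With 10 kb on either side the 9 genes had 38 sites, and with 50 kb they had 75.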

How the data were processed

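The authors mapped HNF4A ChIP-seq reads of jejunal IECs to mm9 with Bowtie2, called narrow peaks in each mouse with MACS2 2.1.1.20160309 against input DNA with a bandwidth of 300 bp. The deposited lists are unpooled, 1 from each mouse. The deposited values are positions in bp, and no column holds a count, score or p-value, so the planned strength column was replaced by peak width. H3K27ac, RNA-seq and the libraries without the meal were not analysed here.

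Peaks were merged at 1 bp, and genes followed GENCODE M1 (transcripts of the most exons for exon numbers). No peak ended beyond any of 21 chromosomes of NCBIM37. The 226 sites on 9 unplaced names were left out of the sequence search. Calls were compared by Fisher's exact test (scipy 1.17.1, Python 3.11.15) over 45552 sites and width ranks by limma 3.58.1 in R 4.3.3, both adjusted after Benjamini-Hochberg (threshold 0.05). On simulated data of 3445 sites, GF+HFM against CV+HFM, limma recovered 92% of 200 sites shifted by 3 SD, and 5.64% of its calls were false. Sequences were read with pysam 0.24.0.

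All 9 genes were named. Sites over a start, sites called in all 8 libraries and each gene's most often called site were described in full. The members, the pathway list and the cell type marker lists were chosen with earlier results of these data known. Alternatives were other limits in kb, peaks at least 300 bp wide, a coverage of 50% of a site, lists cut to equal length, libraries by identifier, each library left out, a replicate block, log2 widths and other search windows.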

Additional observations from a re-analysis of the deposited data

Results flagged for a closer look

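In groups of 4 libraries, 8 of 54 values stood apart from the other 3 of their condition by Dixon's criterion, which flags about 1 in 20 groups of untied values by chance. Among width percentiles, Arg2-4 was at 35.1 in GF+HFM replicate 4 and at 13.5 to 16.8 in the others. Nags-5 was at 59.3 in GF+HFM replicate 1 and at 19.7 to 23.4 in the others. Nags-4 was at 97.1 in GF+HFM replicate 2, where its peak was split, and at 99.7 to 99.9 in the others. Aldh18a1-6 was at 31.2 in GF+HFM replicate 1 and at 48.2 to 48.6 in the others. Prodh-6 was at 42.9 in CV+HFM replicate 4, the shortest list, and at 83 to 89.9 in the others. Among numbers of sites called, GF+HFM replicate 2 had 2 at Asl where the other GF+HFM libraries had 1, 5 at Aldh18a1 where they had 6, and 7 at Prodh where they had 9. In these counts the other 3 libraries were tied, so that any difference meets the criterion and the chance rate does not apply.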

How the results depend on the processing

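The number of sites at the 9 genes stayed within 1.5 times of 52 under all 14 alternatives (38 to 75). The number called in all 4 GF+HFM and no CV+HFM libraries was 0 and became 1 (4.89% of all sites) when peaks had to cover 50% of a site, and ranged from 0 to 6 with 1 library left out, the 6 being without CV+HFM replicate 1, when 10.9% of all sites were so called. The mean difference in sites called, 19.2, was -0.75 with lists cut to equal length, 39 among libraries without the letter A in their identifier (2 GF+HFM and 1 CV+HFM), 10.8 among those with it, and, chosen after seeing the data, 6.25 without CV+HFM replicates 2 and 4. It ranged from 13.6 to 25.9 with 1 library left out. Over all sites, the 4 that passed in limma became 0 with log2 widths and 0 to 21 with 1 library left out. The count was 0 without GF+HFM replicate 1, 3 or 4 or CV+HFM replicate 2 or 3, 14 without GF+HFM replicate 2, and reached 21 when CV+HFM replicate 1 was left out. The difference at Prodh-2, 0.047, ranged from -0.118 to 0.376 with 1 library left out, and changed sign to -0.0157 and -0.107 when GF+HFM replicate 3 or 4 was left out and to -0.0291 and -0.118 when CV+HFM replicate 1 or 3 was. No site at the 9 genes passed under any of these. The cause of these changes was not tested. The share with motif letters stayed within its interval.

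With the replicate number as a block, 4 sites passed in limma, as without it, and none at the 9 genes. The numbers share no known animal or batch, and deviations of same-numbered libraries correlated at 0.0534, 0.0746, -0.0776 and 0.138 over 3445 sites, so the block was not treated as a pairing. Depth is unknown, and peak numbers limit what a missing call means in CV+HFM replicates 2 and 4.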
